A study of Mus musculus with 37 samples.

Results

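A set of 7 potassium channel genes was followed in the ribosome-bound RNA of mouse midbrain dopamine and GABA neurons: the SK channel subunits Kcnn1, Kcnn2 and Kcnn3, the BK channel subunits Kcnma1 and Kcnmb4, and the Kv7 subunits Kcnq3 and Kcnq5. The genes were taken by symbol from both deposited count tables, and all 7 were found, 7 of the 57180 genes listed. Both lines carry the NuTRAP transgene, which places a GFP-tagged ribosomal protein L10a under control of Cre, so that tagged ribosomes and the mRNA they hold can be pulled down from midbrain tissue. In DAT;NuTRAP mice Cre is driven from the dopamine transporter locus and in VGAT;NuTRAP mice from the vesicular GABA transporter locus, so each library stands for the cells in which that driver was or had been active, and for whatever RNA came through the pulldown with them. The 37 libraries, each from 1 mouse by its labels, were 9 old and 10 young DAT;NuTRAP and 8 old and 10 young VGAT;NuTRAP. The old mice were 21 months old except for 1 VGAT;NuTRAP female of 24 months, and young mice were 8 to 10.5 months (DAT;NuTRAP) or 7 to 9 months (VGAT;NuTRAP). Old DAT;NuTRAP mice were 5 males and 4 females and young ones 5 males and 5 females, while old VGAT;NuTRAP mice were 3 males and 5 females and young ones 4 males and 6 females.

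Libraries held between 13841253 and 38235015 counts over genes, and the dopamine and GABA label genes separated the lines in every library: Slc6a3, the dopamine transporter, stood at 2595 to 4261 CPM (counts scaled to library size, with TMM factors) in DAT;NuTRAP and at 249.0 to 1238 CPM in VGAT;NuTRAP, and Gad1, a GABA-synthesising enzyme, at 53.6 to 253 CPM in DAT;NuTRAP and 1389 to 2283 CPM in VGAT;NuTRAP. Slc6a3 was thus far from 0 in VGAT;NuTRAP. The labels also give a first and a second batch, without saying what a batch is or whether it was shared between the lines. Genes with at least 1 count numbered 19085 to 21051 in the 8 first-batch and 14323 to 18170 in the 11 second-batch DAT;NuTRAP libraries, against 19482 to 21176 in the 6 first-batch and 18485 to 21803 in the 12 second-batch VGAT;NuTRAP libraries. Under 16000 genes were found in 4 libraries, all from DAT;NuTRAP females: old female 2 and young females 3, 4 and 5. Marker sums of other cell types also differed between the lines. The 10 astrocyte markers summed to 546, 992 and 1766 CPM (lowest, median and highest library) in DAT;NuTRAP and to 205, 371 and 559 CPM in VGAT;NuTRAP, and the 10 oligodendrocyte markers to 521, 1278 and 2413 CPM in DAT;NuTRAP and to 258, 387 and 1008 CPM in VGAT;NuTRAP. The 10 endothelial and pericyte markers summed to 68.2, 162 and 293 CPM in DAT;NuTRAP and to 33.9, 48.1 and 77.2 CPM in VGAT;NuTRAP. All 10 genes of each of these 3 lists passed the test as higher in DAT;NuTRAP, against 1 of 10 microglial markers (7 of the 10 had a positive difference), whose sums were 41.2, 63.3 and 142 CPM in DAT;NuTRAP and 18.1, 42.8 and 163 CPM in VGAT;NuTRAP; no marker had a mean of 0 in either line.

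SK channels are opened by calcium through calmodulin that is permanently bound to the channel, and they carry the afterhyperpolarisation that follows spikes; in midbrain dopamine neurons they are known for keeping pacemaker firing regular. BK channels need both depolarisation and calcium, and repolarise the spike. Kv7 channels carry the M-current, a slow potassium current that holds neurons back from repetitive firing and that closes when receptors coupled to Gq lower the membrane lipid PIP2. Kcnn1, Kcnn2 and Kcnn3 encode SK1, SK2 and SK3, Kcnma1 the BK pore, Kcnmb4 the neuronal BK accessory subunit beta 4, and Kcnq3 and Kcnq5 the pore subunits Kv7.3 and Kv7.5.

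Promoter windows of 250 bases before and 50 after the start were matched by symbol in RefSeq (GRCm38.p6) for 5 of the 7 genes, in 7 windows. The bases before the start are shown for Kcnn3 and Kcnn1, the SK genes whose levels separated the lines in opposite directions below, 5′ to 3′ on the gene's strand and ending at the base before the start, with motif matches in capitals (CCAAT and TATAA for Kcnn3, and GGGCGG and CCAAT for the second Kcnn1 start). The window of Kcnn3 is chr3:89519914-89520163 (plus strand) and those of Kcnn1 are chr8:70863259-70863508 and chr8:70857009-70857258 (minus strand).
Kcnn3: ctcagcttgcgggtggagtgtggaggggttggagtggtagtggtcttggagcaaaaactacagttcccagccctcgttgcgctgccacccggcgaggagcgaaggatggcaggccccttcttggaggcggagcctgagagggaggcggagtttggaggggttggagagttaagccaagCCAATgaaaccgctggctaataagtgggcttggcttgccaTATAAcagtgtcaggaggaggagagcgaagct
Kcnn1, first start: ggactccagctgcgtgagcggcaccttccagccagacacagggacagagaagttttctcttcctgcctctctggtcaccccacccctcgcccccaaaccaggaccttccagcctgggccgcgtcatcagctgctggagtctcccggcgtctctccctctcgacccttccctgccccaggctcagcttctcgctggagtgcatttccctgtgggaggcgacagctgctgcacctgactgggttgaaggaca
Kcnn1, second start: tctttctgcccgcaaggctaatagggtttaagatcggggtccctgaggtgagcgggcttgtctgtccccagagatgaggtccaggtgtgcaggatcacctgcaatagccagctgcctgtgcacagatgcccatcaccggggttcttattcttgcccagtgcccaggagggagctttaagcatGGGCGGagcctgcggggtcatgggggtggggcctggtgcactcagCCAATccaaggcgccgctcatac

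In all, 6 motifs were searched on both strands of all 32851 RefSeq promoter windows. The Kcnn3 window held a CCAAT box (CCAAT, in 37.4% of all windows) at -72 to -68 from the start and a TATA core (TATAA, in 24.9%) at -32 to -28. The first Kcnn1 window held none of the 6 motifs, and the second held GC boxes (GGGCGG, in 35.7% of all windows) at -68 to -63 and 2 to 7 and a CCAAT box at -23 to -19. Kcnma1 and Kcnmb4, whose windows were 78.0% and 79.0% G and C, held 3 and 4 GC boxes. The NBRE bound by the dopamine neuron factor Nurr1 (AAAGGTCA, in 1.51%), the bicoid-type homeodomain core of the kind Pitx3 binds (TAATCC, in 7.06%) and the homeodomain core TAATTA (in 5.29%) were found in none of the 7 windows. A match describes letters in a window and not a site in use, and TATAA and CCAAT were added to the search after the sequences had been seen.

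In the GRCm39 annotation the genes lie at chr8:71294693-71316409 (Kcnn1, minus strand), chr18:45401927-45818953 (Kcnn2, plus), chr3:89427460-89582439 (Kcnn3, plus), chr14:23339499-24064559 (Kcnma1, minus), chr10:116253766-116309848 (Kcnmb4, minus), chr15:65858236-66158491 (Kcnq3, minus) and chr1:21468627-22032166 (Kcnq5, minus). Antisense transcripts counted in the same tables overlap the exons of some of them, up to 12.7% of the Kcnmb4 exon bases (Kcnmb4os2, 395 counts over all libraries). Strand use in counting is not given in the sources used here, so reads of these partners and of the members cannot be told apart over the shared bases.

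The first comparison asked how the channel genes differ between dopamine and GABA neurons, with libraries of both ages. All 7 members differed between DAT;NuTRAP and VGAT;NuTRAP at an adjusted p under 0.05 (edgeR quasi-likelihood test with batch in the model, Benjamini-Hochberg adjusted over the 16898 genes tested), 3 higher and 4 lower in DAT;NuTRAP. Kcnn3, Kcnmb4 and Kcnq3 were higher, and Kcnn1, Kcnn2, Kcnq5 and Kcnma1 lower. The background was high, since 60.5% of all genes tested passed, 30.0% higher and 30.4% lower, so a call by itself says little and the sizes below carry the description. The median log2 fold change was -0.31 over the members and 0.0094 over all genes tested. The CPM ranges of the lines did not overlap for 2 of the 7 members, Kcnn3 and Kcnn1, against 8.36% of all genes tested. In bulk libraries of this kind a lower share of cells of a type and less RNA per cell cannot be told apart.

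Among the SK genes, Kcnn3 was the one higher in dopamine neurons. Its lowest, median and highest levels were 97.6, 134 and 254 CPM in DAT;NuTRAP (161 ± 52.6, SD, n = 19) and 24.5, 48.0 and 65.4 CPM in VGAT;NuTRAP (47.4 ± 11.5, SD, n = 18). Every DAT;NuTRAP library lay above every VGAT;NuTRAP library. The log2 fold change was 1.67 ± 0.13 (SE; 3.17-fold higher; edgeR adjusted p = 2.43e-13). Kcnn3 also differed with batch within DAT;NuTRAP, at 154 to 254 CPM in the 8 first-batch and 97.6 to 188 CPM in the 11 second-batch libraries, and the fold change between the lines was 2.47 within the first and 1.29 within the second batch on the log2 scale.

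Kcnn1 showed the opposite arrangement. It stood at 6.51, 10.2 and 13.9 CPM in DAT;NuTRAP (9.89 ± 1.92, SD, n = 19) and at 19.98, 30.3 and 45.6 CPM in VGAT;NuTRAP (31.0 ± 7.99, SD, n = 18), again with no overlap. The log2 fold change was -1.63 ± 0.11 (SE; 3.11-fold lower; edgeR adjusted p = 3.78e-17), with -2.03 within the first and -1.45 within the second batch. Kcnn2 followed the direction of Kcnn1 at a smaller size. Its levels were 4.47, 8.80 and 15.0 CPM in DAT;NuTRAP and 13.0, 16.3 and 22.9 CPM in VGAT;NuTRAP, and 17 of the 19 DAT;NuTRAP libraries lay below the lowest VGAT;NuTRAP library (log2 fold change -0.94 ± 0.13, SE; 1.92-fold lower; edgeR adjusted p = 3.03e-08).

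**Figure D1:**
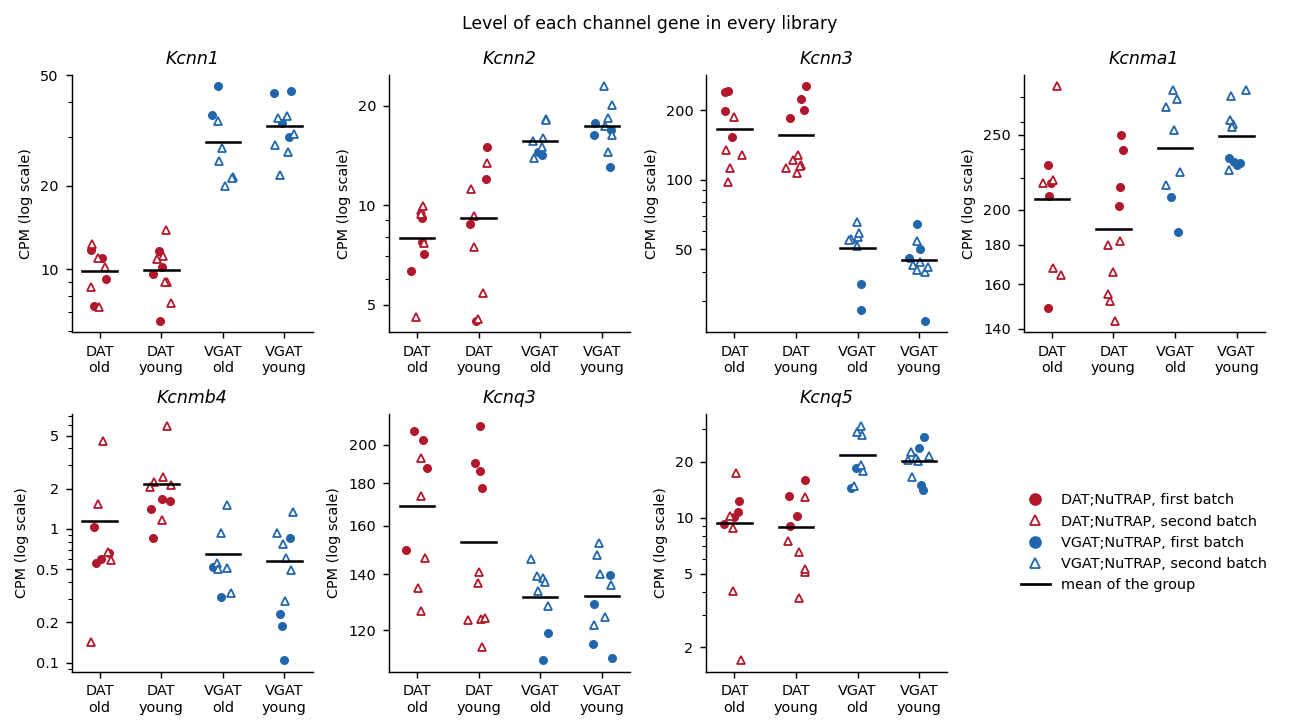
Level of each of the 7 genes in every library, in CPM on a log axis, with DAT;NuTRAP left of VGAT;NuTRAP, old left of young, filled points for the first and open points for the second batch, and lines at group means. Kcnn3 lies wholly higher and Kcnn1 wholly lower in DAT;NuTRAP, while the ranges of the other 5 genes overlap.

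Levels were then divided by the length of all annotated exons of a gene, so that genes could be set beside each other. This length was 5.659 kilobases for Kcnn1 and 10.462 kilobases for Kcnn3. The length of the transcripts in use was not measured, and the shares below depend on this division. Kcnn3 made up 85.1 ± 4.21% of the summed SK level per kilobase of exon in DAT;NuTRAP (SD, n = 19; 79.6 to 91.9%) and 39.6 ± 9.45% in VGAT;NuTRAP (SD, n = 18; 20.3 to 53.7%). Kcnn1 made up 10.4 ± 3.32% in DAT;NuTRAP and 47.4 ± 9.75% in VGAT;NuTRAP, and Kcnn2 4.49 ± 1.79% in DAT;NuTRAP and 13.0 ± 2.38% in VGAT;NuTRAP. The SK total was 17.9 ± 5.13 CPM per kilobase in DAT;NuTRAP, from 11.7 to 27.1, and 11.5 ± 1.2 in VGAT;NuTRAP, from 9.14 to 14.0, so the totals overlapped where the shares of Kcnn3 did not. SK message in DAT;NuTRAP was thus mostly Kcnn3. In VGAT;NuTRAP Kcnn1 and Kcnn3 overlapped in level per kilobase, with Kcnn1 above Kcnn3 in 11 of 18 libraries. That order came with the division by exon length, since in CPM the VGAT;NuTRAP median of Kcnn3 was above that of Kcnn1. The share of Kcnn3 was 86.4 to 91.9% in first-batch and 79.6 to 87.0% in second-batch DAT;NuTRAP libraries.

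**Figure D2:**
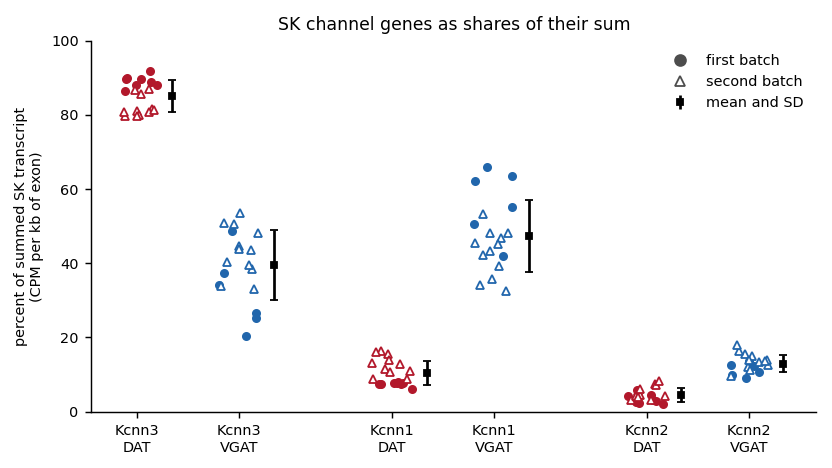
Share of the summed SK level per kilobase of exon taken by Kcnn3, Kcnn1 and Kcnn2, in percent, in each library, with DAT;NuTRAP left of VGAT;NuTRAP, filled points for the first and open points for the second batch, and the mean and SD beside them. Kcnn3 takes 79.6 to 91.9% in DAT;NuTRAP and 20.3 to 53.7% in VGAT;NuTRAP.

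The BK genes differed in opposite directions. Kcnma1, the pore, was abundant in both lines, at 143, 202 and 289 CPM in DAT;NuTRAP (197 ± 39.4, SD, n = 19) and 187, 244 and 286 CPM in VGAT;NuTRAP (245 ± 29.1, SD, n = 18). In 9 of 19 DAT;NuTRAP libraries it lay below the lowest VGAT;NuTRAP library. In 1, old male 5, it lay above the highest, and the rest lay within the VGAT;NuTRAP range. The log2 fold change was -0.31 ± 0.076 (SE; 1.24-fold lower; edgeR adjusted p = 0.000527). It rested on the second batch, with -0.49 there (adjusted p = 3.84e-06) and -0.0085 within the first batch (adjusted p = 0.945). Kcnmb4 was scarce, with 2 to 134 counts per library in DAT;NuTRAP and 2 to 36 in VGAT;NuTRAP. Its levels were 0.143, 1.42 and 5.94 CPM in DAT;NuTRAP and 0.105, 0.513 and 1.51 CPM in VGAT;NuTRAP, with 9 of 19 DAT;NuTRAP libraries above the highest VGAT;NuTRAP library (log2 fold change 1.44 ± 0.35, SE; 2.7-fold higher; edgeR adjusted p = 0.000462). Per kilobase, Kcnmb4 stood at 2.69 ± 2.56% of Kcnma1 in DAT;NuTRAP (SD, n = 19) and at 0.713 ± 0.483% in VGAT;NuTRAP (SD, n = 18).

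Of the Kv7 genes, Kcnq5 was lower in dopamine neurons and Kcnq3 slightly higher. Kcnq5 stood at 1.71, 9.28 and 17.3 CPM in DAT;NuTRAP (9.14 ± 4.16, SD, n = 19) and at 14.1, 20.3 and 31.3 CPM in VGAT;NuTRAP (20.8 ± 5.25, SD, n = 18), with 17 of 19 DAT;NuTRAP libraries below the lowest VGAT;NuTRAP library. The log2 fold change was -1.24 ± 0.19 (SE; 2.36-fold lower; edgeR adjusted p = 4.74e-07), and -0.69 within the first and -1.54 within the second batch. Kcnq3 stood at 115, 149.6 and 211 CPM in DAT;NuTRAP and 111, 135 and 152 CPM in VGAT;NuTRAP, with 9 of 19 DAT;NuTRAP libraries above the highest VGAT;NuTRAP library. Its log2 fold change was 0.26 ± 0.072 (SE; 1.19-fold higher; edgeR adjusted p = 0.00209), carried by the first batch, with 0.66 there (adjusted p = 2.03e-06) and 0.015 within the second batch (adjusted p = 0.861). Kcnq3 made up 90.3 ± 3.88% of the sum of both Kv7 genes per kilobase in DAT;NuTRAP (SD, n = 19) and 76.9 ± 4.36% in VGAT;NuTRAP (SD, n = 18).

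**Figure D3:**
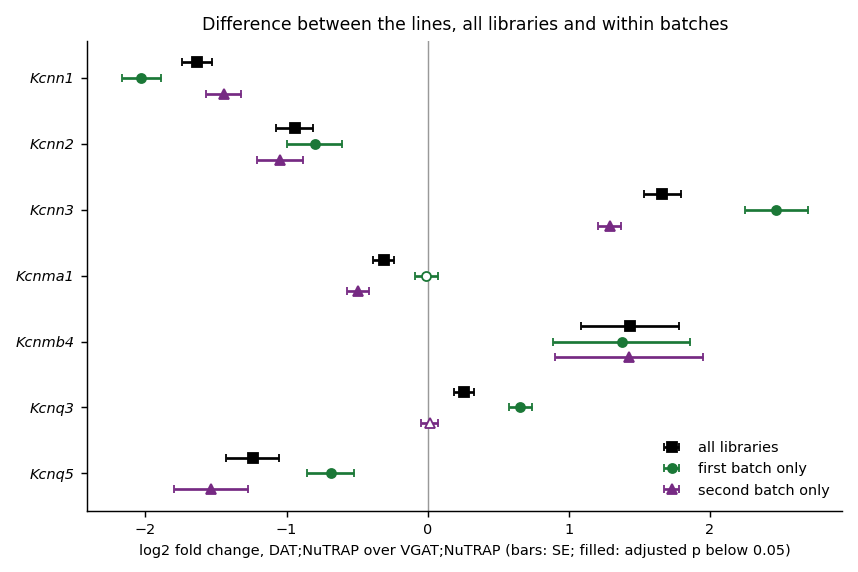
Log2 fold change of DAT;NuTRAP over VGAT;NuTRAP for each gene with its standard error, over all libraries (squares) and within the first (circles) and second batch (triangles), filled where the adjusted p was under 0.05. Kcnn3 and Kcnmb4 are positive and Kcnn1, Kcnn2 and Kcnq5 negative in each, while Kcnma1 in the first and Kcnq3 in the second batch lie near 0.

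All 7 calls held without the 4 libraries under 16000 genes, a setting added after the data were seen, and whichever single library was left out. Astrocyte, oligodendrocyte and vascular marker sums were higher in DAT;NuTRAP beside every one of these differences, and their part in the results was not tested. Within young mice, where 49.8% of genes passed (24.3% higher and 25.4% lower), 6 of the 7 members passed, 2 higher and 4 lower, and Kcnq3 (0.19 ± 0.10, SE; adjusted p = 0.0894) did not. Within old mice, where 46.8% of genes passed (22.7% higher and 24.1% lower), 5 members passed, 2 higher and 3 lower, and Kcnma1 (-0.22 ± 0.11, SE; adjusted p = 0.105) and Kcnmb4 (0.97 ± 0.51, SE; adjusted p = 0.117) did not. The old-mouse values of 3 genes turned on single libraries: Kcnma1 was -0.33 (adjusted p = 0.0115) without DAT;NuTRAP old male 5 and -0.28 (adjusted p = 0.0424) without VGAT;NuTRAP old male 1, Kcnmb4 was 1.14 (adjusted p = 0.0484) without DAT;NuTRAP old female 2 and 0.42 (adjusted p = 0.529) without DAT;NuTRAP old female 4, and Kcnq3 was 0.25 (adjusted p = 0.0654) without DAT;NuTRAP old male 5.

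The order of the genes by median level per kilobase differed between the lines. In DAT;NuTRAP, Kcnn3 (12.8 CPM per kilobase), Kcnma1 (11.9) and Kcnq3 (10.2) formed an upper group whose ranges overlapped, with Kcnn3 above Kcnma1 in 16 of 19 libraries. The lower group, with no range reaching the upper one, was Kcnn1 (1.799 CPM per kilobase), Kcnq5 (1.21), Kcnn2 (0.779) and Kcnmb4 (0.237), and neighbours within it overlapped. In VGAT;NuTRAP, Kcnma1 (14.3 CPM per kilobase) lay above all others without overlap, Kcnmb4 (0.0857) below all others without overlap, and between them stood Kcnq3 (9.15), Kcnn1 (5.35), Kcnn3 (4.59), Kcnq5 (2.64) and Kcnn2 (1.44), each overlapping its neighbour in this order.

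Within VGAT;NuTRAP, Kcnn3 and Kcnn1 each varied with a label gene of the lines, and Kcnn2 passed with none of the 4 label genes (adjusted p from 0.237 to 0.848). Kcnn3 was correlated with Slc6a3 over the 18 libraries (Pearson r = 0.83, permutation p = 3e-05, adjusted p = 0.00056; Spearman rho = 0.83, permutation p = 6e-05, adjusted p = 0.00112), with r = 0.76 without the 2 libraries farthest from the median of Slc6a3. Within the first batch (n = 6) r was 0.88 and within the second (n = 12) 0.87. Kcnn1 was correlated with Gad1 (Pearson r = 0.87, permutation p = 3e-05, adjusted p = 0.00056; Spearman rho = 0.87, permutation p = 1e-05, the smallest the 100000 permutations can give), with r = 0.85 without the 2 farthest libraries, 0.58 within the first and 0.79 within the second batch. With Slc6a3 and Th, Kcnn1 gave r = -0.28 each (permutation test, adjusted p = 0.480). With Slc32a1, the vesicular GABA transporter gene, Kcnn1 gave r = 0.20 (adjusted p = 0.631) and rho = 0.49 (adjusted p = 0.158). Without the 2 libraries farthest in Slc32a1, r was 0.82. Kcnn3 also passed with Th (r = 0.83, permutation test, adjusted p = 0.00056), with 0.88 within the first and 0.85 within the second batch. It passed with Gad1 too (r = -0.67, adjusted p = 0.0132), with -0.86 within the first and -0.48 within the second batch. The permutations ran over all libraries of a line without regard to batch. Gad1 differed with batch in VGAT;NuTRAP (median 2181 CPM in the first and 1608 CPM in the second), and its part in these p-values was not tested. Kcnq5 gave r = -0.62 with Gad1 (adjusted p = 0.0351, Spearman 0.0925). Values of 1 library share its depth and its scaling, and 56 correlations were computed in this family and adjusted together. In DAT;NuTRAP the batches formed separate clusters. Over its 19 libraries Kcnn3 passed with Slc6a3 (r = 0.76, permutation test, adjusted p = 0.00308) and with Gad1 (r = 0.72, adjusted p = 0.00737). Kcnma1, Kcnq3 and Kcnq5 passed there with Th, Kcnq3 and Kcnq5 with Gad1, and Kcnq3 with Slc6a3. Within batches, Kcnn3 against Slc6a3 gave r = 0.34 in the first (n = 8) and 0.04 in the second (n = 11). Against Gad1 it gave -0.066 in the first and 0.12 in the second batch. So VGAT;NuTRAP libraries with more dopamine transporter message also held more SK3 message, and the part of dopamine neuron RNA in the VGAT;NuTRAP level of Kcnn3 was not tested.

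**Figure D4:**
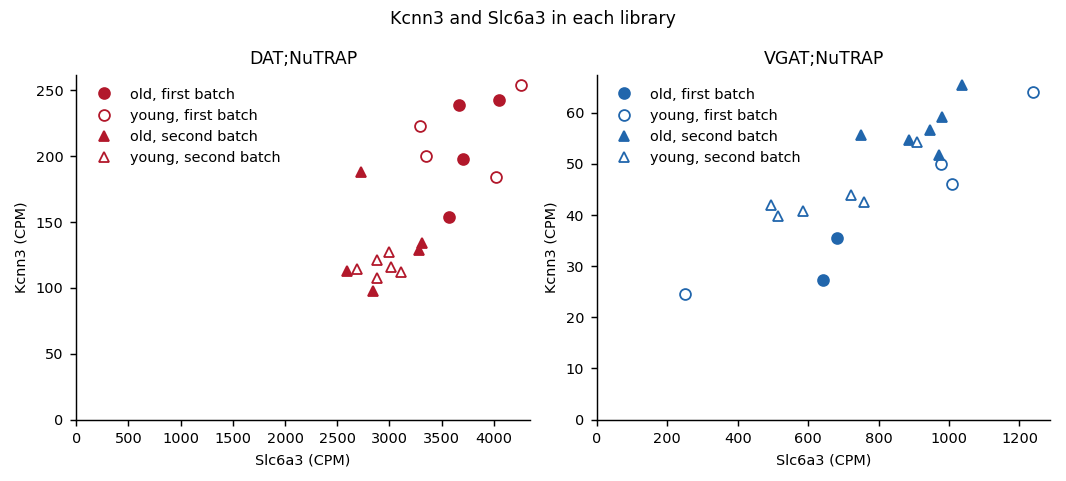
Kcnn3 against Slc6a3, both in CPM, with 1 point per library and separate panels for DAT;NuTRAP (left) and VGAT;NuTRAP (right), marked by batch and age. In VGAT;NuTRAP the points rise together within both batches, while in DAT;NuTRAP the first-batch libraries lie higher in Kcnn3 than most second-batch libraries.

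The second question was what age did to these genes. No member passed the test of old over young in DAT;NuTRAP, where 0.00672% of genes passed, or in VGAT;NuTRAP, where 0.0256% passed; these are 1 of 14889 and 4 of 15607 genes, and 786 and 934 genes had an unadjusted p under 0.05. DESeq2 called no member either, and the smallest unadjusted p of a member was 0.0759 (Kcnn2 in VGAT;NuTRAP). In DAT;NuTRAP, Kcnn3 stood at 97.6, 154 and 242 CPM (lowest, median and highest) in old and 107, 124 and 254 CPM in young mice, and its log2 difference was 0.083 ± 0.10 (SE). Kcnn1, at 7.33, 10.2 and 12.3 CPM in old and 6.51, 9.90 and 13.9 CPM in young mice, differed by -0.013 ± 0.18. Old and young ranges overlapped for every member in both lines, as they did for all but 0.00672% of genes tested in DAT;NuTRAP and 0.0192% in VGAT;NuTRAP.

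The remaining DAT;NuTRAP differences were small against their errors. They were -0.21 ± 0.24 for Kcnn2, 0.14 ± 0.11 for Kcnma1, 0.15 ± 0.082 for Kcnq3 and 0.098 ± 0.29 for Kcnq5 (log2, old over young ± SE), with edgeR adjusted p-values from 0.975 to 1.00 over the 7 genes. Kcnmb4 had the widest difference and error, -0.88 ± 0.60, at 0.143, 0.663 and 4.54 CPM in old and 0.856, 1.87 and 5.94 CPM in young mice. This value was -1.45 without old female 4, -0.66 without young female 5 and -0.49 without the 4 libraries under 16000 genes, and passed in none of these. All 10 astrocyte and all 10 oligodendrocyte markers had a positive difference with age in DAT;NuTRAP, none past the threshold. In VGAT;NuTRAP 9 of 10 astrocyte and all 10 oligodendrocyte markers did, again none past the threshold. The part of these markers in the members' values was not tested.

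In VGAT;NuTRAP the differences were -0.13 ± 0.12 for Kcnn1, -0.17 ± 0.090 for Kcnn2, -0.090 ± 0.057 for Kcnma1, 0.040 ± 0.42 for Kcnmb4, -0.029 ± 0.053 for Kcnq3 and 0.064 ± 0.16 for Kcnq5 (log2, old over young ± SE). The smallest edgeR adjusted p was 0.849, for Kcnn2, which stood at 13.9, 15.3 and 18.3 CPM in old and 13.0, 17.1 and 22.9 CPM in young mice. Kcnn3 differed by 0.12 ± 0.18 over both batches. Within the second batch alone it was higher in old mice, by 0.39 ± 0.07 (edgeR adjusted p = 0.0149), at 51.8, 56.1 and 65.4 CPM in 6 old and 39.7, 42.2 and 54.2 CPM in 6 young libraries, in a fit where 0.333% of all genes passed (52 of 15636). Within the first batch it was -0.56 ± 0.40 (adjusted p = 0.999), at 27.2 and 35.4 CPM in the 2 old and 24.5 to 64.1 CPM in the 4 young libraries.

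Slc6a3 went with Kcnn3 in the same libraries. In the second batch it stood at 751 to 1038 CPM (median 959.5) in old and 494 to 908 CPM (median 653) in young VGAT;NuTRAP mice, and in the first batch at 642 and 681 CPM in old and 249.0 to 1238 CPM in young mice. The part of dopamine neuron RNA in the second-batch value of Kcnn3 was not tested.

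**Figure D5:**
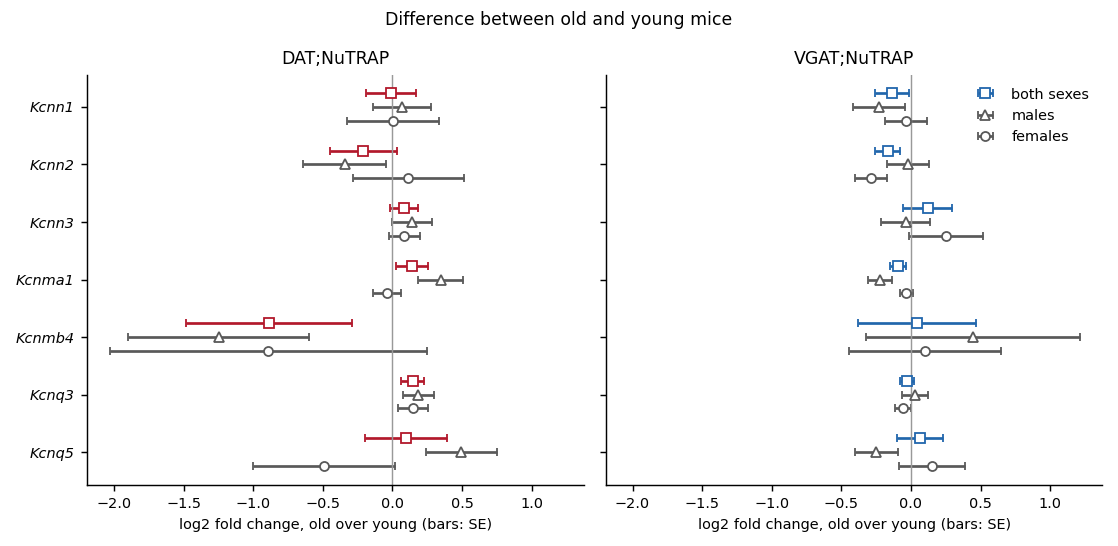
Log2 fold change of old over young for each gene with its standard error, in DAT;NuTRAP (left) and VGAT;NuTRAP (right), over both sexes (squares), in males (triangles) and in females (circles). No value passed an adjusted p of 0.05, and Kcnmb4, the scarcest gene, has the widest errors.

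No member passed the test of whether its age difference differed between the lines, at a background of 0 genes called of 16898 (467 at an unadjusted p under 0.05; edgeR interaction of age and line). The widest was that of Kcnmb4, at -0.93 ± 0.68 (log2, DAT;NuTRAP minus VGAT;NuTRAP ± SE), and the others lay between -0.18 ± 0.25 for Kcnn3 and 0.18 ± 0.15 for Kcnma1. Split by sex, again no member passed, with 0% of genes called in DAT;NuTRAP males and in DAT;NuTRAP females (868 and 601 genes at an unadjusted p under 0.05), 0.0315% in VGAT;NuTRAP males and 0.032% in VGAT;NuTRAP females. In DAT;NuTRAP males Kcnmb4 stood at 1.03, 0.595, 0.663, 0.671 and 0.580 CPM in old and 1.62, 1.42, 2.14, 1.16 and 2.06 CPM in young mice. These 5 old libraries all lay below the 5 young ones, as did those of 0.431% of all genes tested in the same mice, and the log2 difference was -1.25 ± 0.65 (edgeR adjusted p = 0.906). The values rest on 10 to 25 counts per old and 25 to 76 counts per young library. In DAT;NuTRAP females the difference of Kcnmb4 was -0.89 ± 1.14.

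Kcnma1 in VGAT;NuTRAP males also had separate ranges, at 187, 224 and 215 CPM in old and 229.7, 281, 225 and 256 CPM in young mice. This was so, in that direction, for 2.37% of all genes tested. The log2 difference of Kcnma1 was -0.22 ± 0.08 (edgeR adjusted p = 0.944). In DAT;NuTRAP males its difference was 0.35 ± 0.16 (adjusted p = 0.904). These and Kcnn2 in VGAT;NuTRAP females (-0.29 ± 0.11, adjusted p = 0.887) were the 3 member values within a sex with an unadjusted p under 0.05. Kcnq5 gave 0.50 ± 0.25 in DAT;NuTRAP males and -0.49 ± 0.51 in DAT;NuTRAP females, and the interaction of age and sex was 1.03 ± 0.56 (male minus female; edgeR adjusted p = 1.00, with 0 genes called and 703 at an unadjusted p under 0.05). Single libraries moved these values of Kcnq5, to 0.20 in males without old male 4, to -0.023 in females without young female 5 and to -0.94 in females without old female 3, while the interaction ran from 0.67 to 1.37 with each library left out in turn. In VGAT;NuTRAP the interaction of age and sex for Kcnma1 was -0.20 ± 0.09 (adjusted p = 0.967, with 0 genes called and 875 at an unadjusted p under 0.05).

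The partners of these channels were read from fixed lists, again in DAT;NuTRAP over VGAT;NuTRAP. Of 16 other SK, BK and Kv7 subunits 8 were tested, with 2 higher and 3 lower, 5 of 8 where 60.5% of all genes passed (30.0% higher and 30.4% lower). Lrrc55, a BK gamma subunit, was higher by 0.90 ± 0.07 (log2 ± SE) and Kcne2, a small Kv7 accessory subunit, by 2.13 ± 0.71. Among the lower were Kcnmb2, the inactivating BK beta subunit, at -1.59 ± 0.26 and Lrrc38, another BK gamma subunit, at -3.00 ± 0.45. The list's median was -0.37, beside 0.0094 over all genes.

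Of 16 genes for proteins bound to these channels, 4 were higher and 9 lower (median -0.11), beside 30.0% higher and 30.4% lower of all genes. Ank3, the ankyrin that holds Kv7 channels at the axon initial segment, was lower at -1.36 ± 0.09, Akap5, a kinase anchor bound to Kv7 channels, at -1.29 ± 0.11 and Bace1 at -0.50 ± 0.04. Of 14 genes for calcium entry and release, 4 were higher and 6 lower (median -0.014), 10 of 14 beside 60.5% of all genes. The T-type calcium channels Cacna1h (-1.52 ± 0.11) and Cacna1i (-2.14 ± 0.15) and the ryanodine receptor Ryr2 (-2.58 ± 0.21) were lower, and the IP3 receptor Itpr2 was higher (1.00 ± 0.14).

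Of 20 genes for Gq-coupled receptors, phospholipase C and PIP2 synthesis, which set Kv7 activity, 6 were higher and 9 lower (median -0.34), beside 30.0% higher and 30.4% lower of all genes. The neurotensin receptor Ntsr1 was higher by 2.57 ± 0.12, and the serotonin receptor Htr2c (-2.45 ± 0.12) and the glutamate receptor Grm5 (-1.47 ± 0.11) were lower. Among 57 tested of 59 other potassium channel pore subunits, 10 were higher and 38 lower, with a median of -0.96, against the same 30.0% and 30.4% of all genes. Among those with the smallest p were Kcnc1 (-2.16 ± 0.08) and Kcnc2 (-1.67 ± 0.07), which encode fast Kv3 channels, and Kcna2 (-1.42 ± 0.06), a Kv1 channel of axons. With age, none of these 5 lists held a called gene in DAT;NuTRAP or VGAT;NuTRAP.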

How the data were processed

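Ribosome-bound RNA of 37 midbrain pulldowns was sequenced by the authors from directional poly(A) libraries, aligned with STAR 2.7.10b to mm39 (GRCm39) and counted per gene with featureCounts, whose version and strand setting are not given in the sources used here. Both deposited tables, 1 per line, hold raw counts for the same 57180 genes, with no scaling, and all columns were used. Column names gave line, age, sex and number, and the labels gave the batch. Among the 70 pairs of libraries within a group none agreed within sampling noise (lowest chi-square per degree of freedom 5.46).

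Each comparison was fitted over all genes with R 4.3.3 and its package edgeR 4.0.16 (batch in the model, TMM factors, a low-count filter by filterByExpr at 10, robust quasi-likelihood test, Benjamini-Hochberg adjustment, threshold 0.05). Line comparisons and both interactions used all libraries concerned, and each age comparison the libraries of its line or sex. CPM came from 1 set of TMM factors over the 37 libraries, and CPM per kilobase from exon unions of GENCODE vM39, which held 56620 of the gene identifiers. The tests were tried on simulated counts with 200 changed genes, and the share recovered is not reported here. Motifs were searched in RefSeq promoters of another build, GRCm38.p6, whose coordinates were not mixed with those of the tables. Correlations over libraries used 100000 permutations. Intervals and errors cover the spread between mice of these libraries.

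Named were the 7 members in every comparison, up to 4 genes per list with the smallest p among those past the threshold, the label genes, and for each member the 3 genes with the most similar log2 CPM (pseudocount 0.5); some genes that this rule takes are not reported here. The members and lists were chosen with earlier results of these data known. Alternatives were DESeq2 1.42.0, no count filter, no batch term, sex or library size as covariate, single batches, mice of narrower ages, the replicate number as a block, and each library left out; leaving out the libraries under 16000 genes was added after the data were seen.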

Additional observations from a re-analysis of the deposited data

Results flagged for a closer look

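Within each line and age, the highest and lowest library of each member were set against the others (28 groups of 8 to 10 libraries), and 2 libraries stood apart; chance alone marks about 1 group in 20. Kcnn3 in young VGAT;NuTRAP mice was lowest in female 2, at 24.5 CPM with the nearest library at 39.7 CPM, a gap of 0.50 of the group's range, above Dixon's critical value for 10 libraries. The same library had the lowest Slc6a3 (249.0 CPM) and Th (146 CPM) of the VGAT;NuTRAP libraries, with Gad1 at 2278 CPM and Kcnn1 at 43.1 CPM. Kcnmb4 in young DAT;NuTRAP mice was highest in female 5, at 5.94 CPM with the nearest library at 2.45 CPM, again a gap of 0.50 of the range. That library had counts for 14798 genes, and is 1 of the 4 DAT;NuTRAP libraries under 16000 genes.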

How the results depend on the processing

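The 7 calls between the lines held under DESeq2, without a count filter or batch term, with sex or library size as covariate, in mice of narrower ages and with any 1 library left out; at a minimum count of 50 Kcnmb4 was not tested and the other 6 held, and 2 were lost within a batch, Kcnma1 in the first (-0.0085) and Kcnq3 in the second (0.015). In young mice Kcnq3 was -0.13 within the second batch, and in old mice Kcnma1 was 0.017 within the first. Within the first batch young mice lost the calls of Kcnn2 (-0.67, edgeR adjusted p = 0.0513) and Kcnma1 (-0.034, adjusted p = 0.844). They gained that of Kcnq3 (0.62). Old mice lost Kcnq5 in the first batch (-0.65, edgeR adjusted p = 0.0733) and Kcnq3 in the second (0.16, adjusted p = 0.162). They gained Kcnma1 in the second (-0.29). Genes called within the first batch, which held fewer libraries, numbered 5373 in young and 4651 in old mice. The causes of these and of the changes below were not tested.

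Age values of the members, none of them called over all libraries, changed sign as follows. In DAT;NuTRAP within the first batch Kcnn1 was 0.041, Kcnn3 -0.055, Kcnma1 -0.18, Kcnq3 -0.041 and Kcnq5 -0.20, and Kcnq5 was -0.017 with library size as covariate. In VGAT;NuTRAP within the first batch Kcnn1 was 0.12, Kcnn3 -0.56 and Kcnq5 -0.28, within the second Kcnmb4 -0.030 and Kcnq3 0.0068 (with 1 member called, Kcnn3, at a background of 0.333%), with library size as covariate Kcnmb4 -0.0044 and without a batch term Kcnq3 0.0021. The difference between the lines was -0.066 for Kcnn1, 0.51 for Kcnn3 and 0.083 for Kcnq5 within the first batch, 0.12 for Kcnn2 and 0.13 for Kcnq5 within the second, and 0.025 for Kcnn2 in mice of narrower ages. Without a batch term, Kcnn1 was -0.028, Kcnn2 -0.0086 and Kcnn3 -0.084 in DAT;NuTRAP females, Kcnn1 -0.0094 in DAT;NuTRAP males, Kcnma1 0.055 in VGAT;NuTRAP females, and the interaction with sex in VGAT;NuTRAP 0.019 for Kcnn1 and -0.068 for Kcnmb4.

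Genes called with age numbered, under DESeq2, 13 in DAT;NuTRAP, 23 in VGAT;NuTRAP, 1 for the difference between lines, 7 and 31 in DAT;NuTRAP males and females, 19 and 23 in VGAT;NuTRAP males and females and 13 for the interaction with sex in DAT;NuTRAP. Without a count filter they numbered 9 in VGAT;NuTRAP, 106 and 39 in DAT;NuTRAP males and females, 80 and 56 in VGAT;NuTRAP males and females, and 33 and 63 for the interactions with sex in DAT;NuTRAP and VGAT;NuTRAP. Without a batch term VGAT;NuTRAP gave 1 over both sexes, 0 in males and 2 in females. The first batch gave 4 in DAT;NuTRAP, 0 in VGAT;NuTRAP and 1 for the difference between lines, the second batch 52 in VGAT;NuTRAP, and sex as covariate 8 in VGAT;NuTRAP.

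A check gave no sign that replicate numbers pair the mice, but in groups of 3 to 6 libraries it cannot exclude pairing. The check took log CPM after removal of batch, as deviations of each library from its group mean. Deviations of same-numbered old and young libraries correlated by -0.15 to 0.064 in DAT;NuTRAP (9 pairs) and by -0.16 to 0.027 in VGAT;NuTRAP (8). Those of same-numbered libraries of both lines correlated by -0.064 to 0.047 (16). Within a line, no old library's deviations correlated best with those of the young library of its own number. Best matches between the lines were not computed. With the replicate block, 7 members passed between the lines (8931 genes called) and 0 with age (1 gene called in DAT;NuTRAP, 7 in VGAT;NuTRAP); signs changed for Kcnn2 in the difference between lines (0.12), for Kcnn1 (-0.023), Kcnn2 (-0.096) and Kcnq5 (0.053) in DAT;NuTRAP females and for Kcnq3 (-0.015) in VGAT;NuTRAP males.

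With each library left out in turn, genes called ranged from 0 to 2 for age in DAT;NuTRAP, 2 to 7 in VGAT;NuTRAP, 0 to 1 for the difference between lines, 0 to 1 in DAT;NuTRAP males, 0 to 9 in DAT;NuTRAP females, 0 to 4 in VGAT;NuTRAP males and 4 to 20 in VGAT;NuTRAP females, and no member was called. Member values that changed sign ranged from -0.070 to 0.048 for Kcnn1, -0.011 to 0.14 for Kcnn3 and -0.16 to 0.24 for Kcnq5 in DAT;NuTRAP, -0.19 to 0.25 for Kcnmb4 and -0.016 to 0.14 for Kcnq5 in VGAT;NuTRAP, and -0.14 to 0.070 for Kcnn2 and -0.28 to 0.087 for Kcnq5 in the difference between lines. In DAT;NuTRAP males they ranged from -0.040 to 0.19 for Kcnn1 and -0.062 to 0.24 for Kcnn3, and in DAT;NuTRAP females from -0.094 to 0.12 for Kcnn1, -0.077 to 0.41 for Kcnn2 and -0.15 to 0.052 for Kcnma1. In VGAT;NuTRAP males they ranged from -0.13 to 0.038 for Kcnn2, -0.16 to 0.24 for Kcnn3, -0.017 to 0.98 for Kcnmb4 and -0.047 to 0.093 for Kcnq3, and in VGAT;NuTRAP females from -0.16 to 0.024 for Kcnn1, -0.059 to 0.017 for Kcnma1 and -0.11 to 0.49 for Kcnmb4. The interaction with sex ranged from -0.098 to 0.24 for Kcnn1, -0.17 to 0.17 for Kcnn3, -0.87 to 0.68 for Kcnmb4 and -0.095 to 0.15 for Kcnq3 in DAT;NuTRAP, and from -0.51 to 0.71 for Kcnmb4 in VGAT;NuTRAP. Kcnmb4 was the scarcest member, with as few as 2 counts in a library.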

Other observations

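The genes whose log2 CPM ran most closely with each member were read over all 37 libraries, among 14384 candidates, as a description with no test; the libraries fall into the 2 lines, and values of 1 library share its depth. Genes among the closest 3 are given. For Kcnn3 they were Fam167a, Tmem255a and Ndnf (each r = 0.97) and for Kcnn1 Limk1, Nefh and Nefm (each r = 0.96), where Nefh and Nefm encode neurofilament subunits. For Kcnq5 they were Gabra5, a GABA-A receptor subunit (r = 0.91), and Srek1 (0.88), for Kcnma1 Hook3 (0.90) and Nhsl2 (0.89), and for Kcnn2 Cabp7 (0.88), Zfp516 (0.88) and Rnf152 (0.87). For Kcnq3 they were Hdac9 (0.87), Kcnj6, a subunit of G-protein-gated potassium channels (0.86), and Erbb4 (0.85), and for the scarce Kcnmb4 Noc4l (0.78), Smarcb1 (0.78) and Metap1d (0.75). Within the 19 DAT;NuTRAP libraries, where both batches were kept together, other genes came first, such as Evi5, Pde4d and Lpgat1 for Kcnn3 (0.96, 0.96 and 0.95), Zdhhc21, Lmbrd2 and Atrn for Kcnq3 (each 0.95), and Dao, Tex261 and Qrfpr for Kcnn1 (0.77, 0.72 and 0.72).

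The members also differed in how much they varied between mice. The coefficient of variation over libraries was higher in DAT;NuTRAP than in VGAT;NuTRAP for 6 of the 7 members, among them Kcnq5 (45.6% and 25.2%), Kcnn2 (34.3% and 14.7%) and Kcnq3 (20.6% and 9.48%), and lower for Kcnn1 (19.4% and 25.8%). The batches of DAT;NuTRAP, which differ in genes with counts, enter these values, and the difference in variation was not tested.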
